A study of Mus musculus with 16 samples.

Results

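The most abundant transcripts of the sham-operated mouse heart were taken as the array probes whose deposited intensity averaged 3500 or more over the 8 sham arrays. This rule chose 259 of 25697 probes, or 1.01% of those on the array. RNA came from cardiac tissue of C57BL/6J mice, with 1 bead array per mouse and 4 mice in each of 4 groups. TG_IR mice overexpressed AKIP1, a protein that binds protein kinase A, and had ischemia/reperfusion (I/R) injury, in which blood flow to heart muscle is stopped and then restored. TG_Sham mice overexpressed AKIP1 and had a sham operation. WT_IR mice were wild-type littermates with I/R injury, and WT_Sham mice were wild-type littermates with a sham operation. The sources used here do not give the promoter of the transgene, the time between surgery and tissue collection or the part of the heart taken.

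Heart muscle devotes much of its messenger RNA to a small set of products. In the mammalian heart these include the contractile proteins of the sarcomere, the subunits of the mitochondrial respiratory chain, the enzymes of fatty acid use, proteins that store oxygen or buffer energy, and the proteins of the ribosome. After I/R, dying muscle cells, invading blood cells and activated fibroblasts alter this mixture, and in bulk tissue fewer cells of a type and less RNA per cell cannot be told apart. No gene name accompanies a probe in the files, so the probes are given by ID, no role is assigned to any of them, and neither the cardiac label nor the transgene was checked against marker genes.

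Most of the chosen probes were bright on every sham array. Their sham means ran from 3501.0 to 24372.6 intensity units, 68 of them had a sham mean of 10000 or more and 12 of 20000 or more. All 8 sham arrays were at 3500 or more for 215 of the 259, and all 16 arrays of the study for 181. At the lower edge the rule cut through a crowded range, with 48 members under 4000. ILMN_2900484 at 3501.0 and ILMN_2469689 at 3507.6 were the members just inside the threshold, and ILMN_3150658 at 3494.5 and ILMN_2734511 at 3486.0 were the probes just outside it. The sham arrays of either genotype alone would have chosen nearly the same probes: 255 members also averaged 3500 or more in TG_Sham, 251 in WT_Sham, and 247 in both. Because the sham arrays chose the members, counts of members that differ between I/R and sham are given as descriptions. Where a comparison of I/R with sham is drawn, a second count uses a set whose choosing arrays took no part in it. These sets are the 259 probes that averaged 3500 or more in WT_Sham, for TG hearts, and the 261 that did so in TG_Sham, for WT hearts.

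The array labelled WT_IR replicate 2 stood with the sham arrays. Over the members, its median absolute log2 distance was 0.11 to the sham arrays and 0.41 to the other WT_IR arrays. TG_Sham and WT_Sham arrays lay 0.10 apart by the same measure. Its label was kept, and the WT counts and differences that it moved most are also given without it. Each of the 2 slides held 2 arrays of every group, replicates 1 and 2 on the first and replicates 3 and 4 on the second. No intensity of a member was exactly equal on arrays of different slides, whereas 286 pairs of equal values occurred between arrays of the same slide.

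The members held a smaller share of the summed intensity on 7 of the 8 I/R arrays than on any sham array. In TG_IR the share was 22.39%, 22.49%, 22.75% and 22.88%, against 23.31%, 23.39%, 23.43% and 23.39% in TG_Sham. In WT_IR it was 22.20%, 23.37%, 22.36% and 23.08%, against 23.46%, 23.42%, 23.39% and 23.39% in WT_Sham. The TG groups did not overlap, while in WT the array of replicate 2 lay just below the lowest WT_Sham array. Group means were 22.63% ± 0.229 in TG_IR and 23.38% ± 0.0511 in TG_Sham, and 22.75% ± 0.561 in WT_IR and 23.42% ± 0.0324 in WT_Sham (SD, n = 4 each). Without replicate 2, the WT_IR mean was 22.55% ± 0.470 (SD, n = 3).

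**Figure D1:**
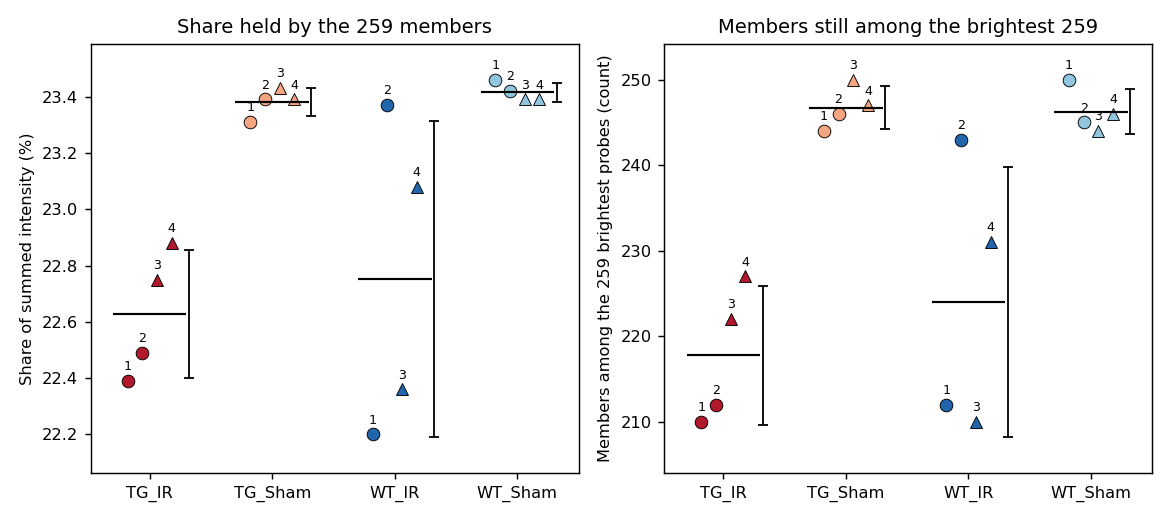
Share of the summed intensity held by the 259 members (left, percent) and number of members among each array's own 259 brightest probes (right, count), 1 point per heart labelled with its replicate number, circles for slide 1 and triangles for slide 2, with group mean and SD (n = 4), on axes that do not start at 0. The TG_IR shares lie between 22.39% and 22.88%, below the TG_Sham shares of 23.31% to 23.43%, and WT_IR replicate 2 lies at 23.37%, beside the sham hearts.

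Tested on the sets chosen without the sham arrays being compared, the share was lower after I/R by 0.79 points in TG (22.52% ± 0.239 in TG_IR, 23.31% ± 0.112 in TG_Sham). The two-sided exact permutation test gave p = 0.0286, the smallest p that 4 arrays against 4 allow, and 0.114 after Benjamini-Hochberg adjustment over the 4 tests of shares. In WT the difference was −0.65 points (22.78% ± 0.561 in WT_IR, 23.43% ± 0.0332 in WT_Sham, exact p = 0.0571, adjusted p = 0.114). Without WT_IR replicate 2 it was −0.86 points (exact p = 0.0571). All 4 TG_IR arrays lay below all 4 TG_Sham arrays, and 3 of the 4 WT_IR arrays lay below all WT_Sham arrays, but neither difference passed 0.05 once adjusted. These sets too were chosen as the brightest in sham hearts, and the arrays had nearly equal distributions. A change of order after I/R could therefore hardly raise the share, and nothing is read from the direction of these differences. Between genotypes the members' share differed by −0.12 points after I/R (TG_IR minus WT_IR, exact p = 0.686, adjusted p = 0.686). That difference was 0.08 points without WT_IR replicate 2. After sham it was −0.04 points (TG_Sham minus WT_Sham, exact p = 0.286, adjusted p = 0.381).

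The size of these shares was bounded by the processing, since the arrays had nearly the same distribution of intensities. Each array's own 259 brightest probes, whichever they were, held 23.40% to 23.52% of its intensity. Sham arrays fell 0.0485 to 0.158 points short of that ceiling. TG_IR arrays fell short by 1.05, 0.913, 0.742 and 0.606 points, and WT_IR arrays by 1.24, 0.106, 1.11 and 0.430 points. A lower share therefore records that other probes had taken the brightest places, and says nothing about the total RNA of the heart. Probes with a sham mean of 300 to 1000 held 18.34% to 18.96% on the I/R arrays other than WT_IR replicate 2, against 18.04% to 18.10% on the sham arrays. Those with a sham mean of 1000 to 3500 held 14.29% to 14.60% on the same I/R arrays, against 14.66% to 14.78% on the sham arrays. By these classes, the loss of share extended to the next brightest class, and the gain lay among probes of middle intensity and below. The classes were cut on the same sham arrays, and no classes chosen on the other genotype were used. This pattern is therefore a description.

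The order of abundance among the members was looser after I/R. Of the 259 members, 210, 212, 222 and 227 were among the 259 brightest probes of the TG_IR arrays, against 244, 246, 250 and 247 of the TG_Sham arrays. The WT_IR arrays kept 212, 243, 210 and 231, against 250, 245, 244 and 246 for the WT_Sham arrays. The sham arrays chose the members and so had to keep many of them. In the set of 259 chosen on WT_Sham, 210, 209, 219 and 226 were among the 259 brightest of the TG_IR arrays, against 237, 239, 247 and 247 of the TG_Sham arrays. In the set of 261 chosen on TG_Sham, the WT_IR arrays kept 212, 243, 212 and 232 among their 261 brightest, against 251, 244, 241 and 245 for the WT_Sham arrays. All TG_IR arrays thus kept fewer than any TG_Sham array, as did WT_IR replicates 1, 3 and 4 beside WT_Sham, while WT_IR replicate 2 lay within the WT_Sham counts. Of the 10 brightest sham probes, 6, 6, 6 and 7 were still among the 10 brightest in TG_IR and 6, 10, 7 and 9 in WT_IR, whereas sham arrays, which chose these 10, kept 8 or 9. The median member moved 25.5 to 43.9 places from its mean sham rank on the I/R arrays, 9.25 places on WT_IR replicate 2, and 6.14 to 11.9 places on the sham arrays, each sham array being set against the other sham arrays. Spearman's rho across members between an array and the sham mean was 0.772 to 0.875 on the I/R arrays, 0.971 on WT_IR replicate 2 and 0.935 to 0.985 on the sham arrays. These correlations run across members, which share their arrays and are not replicates.

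By group mean, 43 members (16.6%) were below 3500 in TG_IR and 30 (11.6%) in WT_IR, and 28 were below it in both. Without WT_IR replicate 2 the WT_IR count was 43, of which 39 were also below in TG_IR. Most had been near the threshold, with a median sham mean of 3990.0 for the 43 in TG_IR and 3887.1 for the 30 in WT_IR. A sham mean of 5000 or more was found for 7 of the 43, up to 7081.2, and for 1 of the 30 (6 of 43 without WT_IR replicate 2). In their place, 41 other probes averaged 3500 or more in TG_IR and 30 in WT_IR, 28 of them in both. In the set chosen on WT_Sham, 45 of 259 were below 3500 in TG_IR and 12 in TG_Sham. In the set chosen on TG_Sham, 32 of 261 were below it in WT_IR (45 without replicate 2) and 14 in WT_Sham. Among the newcomers, 17 in TG_IR and 8 in WT_IR were at least 2-fold above their sham mean, and 17 in WT_IR without replicate 2. ILMN_2909150 was the brightest of them by I/R mean, with 10125, 7710, 9476 and 5691 intensity units in TG_IR against 992, 2726, 1291 and 1196 in TG_Sham. It had 11766, 1847, 8954 and 5652 units in WT_IR against 1189, 1907, 1866 and 655 in WT_Sham. Its I/R hearts stood clear of the sham hearts except for WT_IR replicate 2, which lay inside the WT_Sham range.

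Single hearts showed the same reordering. Relative to the range of the 8 sham arrays, the TG_IR arrays had 64, 69, 65 and 60 members above it and 147, 132, 130 and 109 below it. The WT_IR arrays had 66, 27, 67 and 59 above and 146, 41, 142 and 107 below. Sham arrays, each set against the other 7, had 19 to 49 above and 11 to 56 below in TG_Sham, and 18 to 43 above and 16 to 45 below in WT_Sham. On 7 I/R arrays more members lay below the sham range than above it, and on WT_IR replicate 2 both counts were inside the span of the sham arrays. For the sets chosen on the other genotype, arrays were set against the range of the 4 sham arrays that chose the set. TG_IR arrays then had 70 to 80 probes above the range and 143 to 159 below it, against 40 to 60 above and 32 to 93 below on TG_Sham arrays. WT_IR arrays had 72, 42, 71 and 69 above and 154, 68, 151 and 119 below, against 39 to 65 above and 51 to 58 below on WT_Sham arrays. The median absolute log2 difference of a member from its sham mean was 0.41, 0.39, 0.32 and 0.24 on the TG_IR arrays and 0.39, 0.08, 0.44 and 0.24 on the WT_IR arrays, against 0.06 to 0.11 on the sham arrays. Replicates 4 of both I/R groups shifted least among the 7 arrays.

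**Figure D2:**
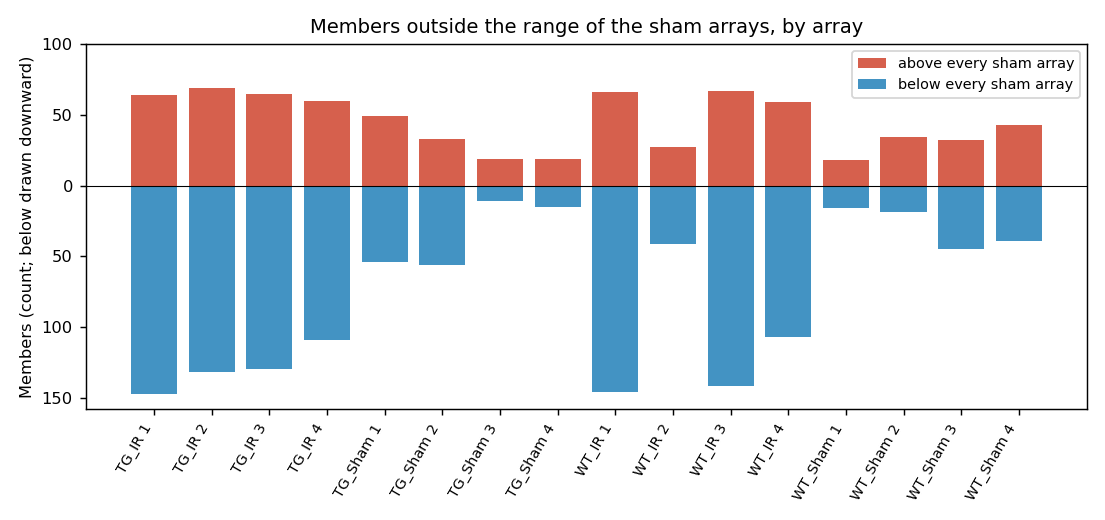
Number of the 259 members above (upward bars) or below (downward bars) the range of the 8 sham arrays, for each of the 16 arrays, where a sham array is set against the other 7. The TG_IR arrays have 109 to 147 members below the range and WT_IR replicate 2 has 41, while no sham array has more than 56.

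In TG hearts, limma called 139 of the 259 members between I/R and sham at an adjusted p under 0.05, 48 higher and 91 lower. That is 53.7% of the members, beside 15% of all probes called (7.4% higher and 7.62% lower). The rule used the TG_Sham arrays, so nothing is read from this count by itself. The set chosen on WT_Sham alone gave 142 of 259 called, 49 higher and 93 lower, or 54.8%. The calls were also frequent among probes that the rule did not take, with 49.4% of those with a sham mean of 1000 to 3500, 41.4% of those from 300 to 1000 and 9.18% of those under 300.

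In WT hearts, 74 members were called, 25 higher and 49 lower, or 28.6% of the members beside 7.26% of all probes (3.56% higher and 3.7% lower). The set chosen on TG_Sham alone gave 75 of 261, 25 higher and 50 lower. The corresponding shares were 25.9% in the class from 1000 to 3500, 21.3% from 300 to 1000 and 4.12% under 300. Without WT_IR replicate 2 the WT count was 183 members (61 higher, 122 lower), beside 18.8% of all probes (9.04% higher and 9.75% lower), and 182 of the 261 chosen on TG_Sham. The TG count in the same fit was 177 (60 higher, 117 lower), beside 19.1% of all probes (9.16% higher and 9.96% lower), and 180 of the 259 chosen on WT_Sham. The WT count rested on single arrays in the other direction as well, since it was 0 without WT_IR replicate 1 or 3 or WT_Sham replicate 2 or 3, 1 without WT_Sham replicate 4, 7 without WT_IR replicate 4 and 18 without WT_Sham replicate 1. The TG count was 81 without TG_Sham replicate 4, 87 without TG_IR replicate 1 and 92 without TG_Sham replicate 3.

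More members were lower than higher in both genotypes. The split was smaller with cyclic loess normalization or with members chosen on all 16 arrays. The log2 difference was negative for 175 members in TG, with a median of −0.21, and for 171 in WT, with a median of −0.15 (−0.21 without WT_IR replicate 2). Over all probes the medians were −0.01 in TG and 0.00 in WT. The class from 1000 to 3500 leaned downward much as the members did, with medians of −0.19 in TG and −0.14 in WT. Its differences were negative for 66.6% of probes in TG and 65.5% in WT, beside 67.6% and 66.0% of the members. Quantile normalization kept the split, with 47 members called higher and 86 lower in TG, and 25 higher and 45 lower in WT. So did leaving out the background correction, with 47 higher and 85 lower in TG, and 11 higher and 27 lower in WT. With cyclic loess normalization, which removes trends with intensity between arrays, 61 members were called higher and 63 lower in TG, and 31 higher and 29 lower in WT. The members' medians were then −0.08 in TG and −0.03 in WT. Calls in the higher direction made up 34.5% in TG and 33.8% in WT without it, and 49.2% in TG and 51.7% in WT with it. For the class from 1000 to 3500 they made up 32.9% in TG and 32.3% in WT without it. With it they made up 42.98% in TG and 42.25% in WT. Choosing on all 16 arrays, and so also on the I/R arrays, gave 257 probes. Of these, limma called 62 higher and 78 lower in TG, and 34 higher and 40 lower in WT. Calls in the higher direction then made up 44.29% in TG and 45.95% in WT. The downward lean of the members was thus partly tied to choosing them on sham arrays.

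**Figure D3:**
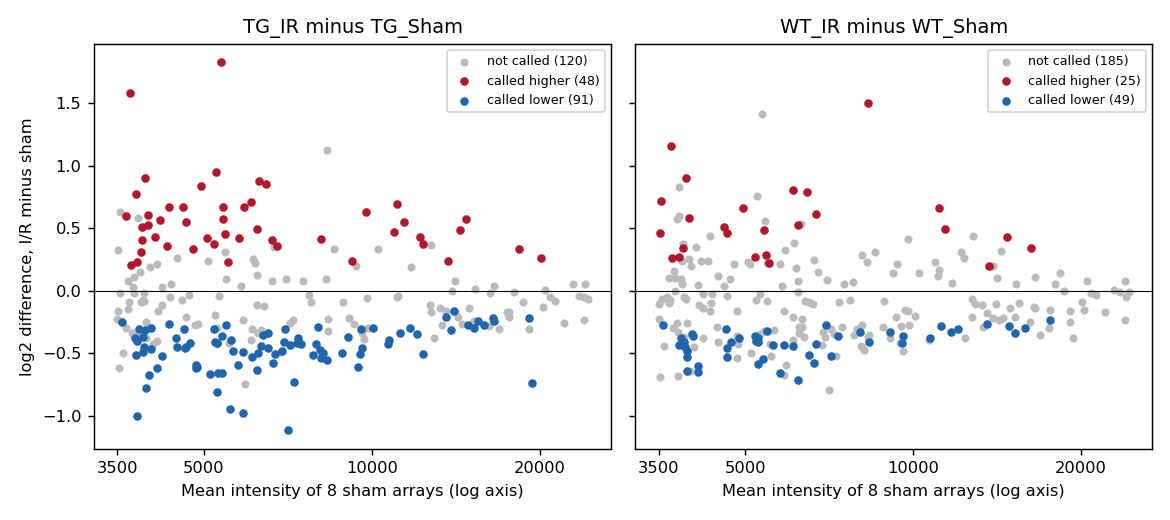
Log2 difference between I/R and sham for each of the 259 members against its mean intensity on the 8 sham arrays (log axis), in TG (left) and WT (right), with members called by limma at an adjusted p under 0.05 coloured. TG has 48 members called higher and 91 lower and WT has 25 and 49, and the differences narrow toward the brightest members.

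The very brightest members moved least. Among the 10 brightest sham probes limma called 0 in either genotype, with 2 in TG and 1 in WT at an unadjusted p under 0.05. Their median absolute log2 difference was 0.06 in TG and 0.04 in WT. For sham ranks 11 to 50 it was 0.24 in TG and 0.20 in WT, and for ranks 101 to 150 it was 0.42 in TG and 0.36 in WT. The last band also had the most negative median difference, −0.35 in TG and −0.29 in WT, with 8 of its 50 members called higher and 24 lower in TG, and 4 higher and 11 lower in WT. At ranks 201 to 259, at the lower edge of the rule, 13 were called higher and 16 lower in TG, and 8 higher and 12 lower in WT. With WT_IR replicate 2 left out, 1 of the 10 brightest was called lower in each genotype. The WT calls were then 11 higher and 29 lower at ranks 101 to 150, and 16 higher and 23 lower at ranks 201 to 259. A probe at the top of an equalised distribution has little room above it, and how far this narrows the brightest band was not tested.

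ILMN_2692124, the brightest probe in sham, had 23522, 22235, 23210 and 24079 units in TG_IR against 23885, 25110, 24581 and 24079 in TG_Sham. In WT_IR it had 23885, 24240, 24581 and 24079 units, against 24653, 23885, 23649 and 25140 in WT_Sham. The groups overlapped in both genotypes, and limma gave log2 differences of −0.07 in TG (adjusted p = 0.199) and −0.01 in WT (adjusted p = 0.943). ILMN_2598972, the next brightest, averaged 24522 ± 407 in TG_IR and 23623 ± 1531 in TG_Sham, and 23672 ± 747 in WT_IR and 24546 ± 692 in WT_Sham (SD, n = 4 each). Its differences were 0.06 in TG (limma adjusted p = 0.489) and −0.05 in WT (limma adjusted p = 0.571).

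Among called members whose groups did not overlap, ILMN_2726837 had the largest log2 difference upward in TG. It had 17811, 21541, 19258 and 16962 units in TG_IR, against 6713, 9817, 4001 and 3225 in TG_Sham. Every TG_IR heart was above every TG_Sham heart, with a log2 difference of 1.83 (SE 0.47, limma adjusted p = 0.0171), or 3.55-fold. The call was lost without TG_Sham replicate 3 (limma adjusted p = 0.0524) or 4 (limma adjusted p = 0.0593). In WT_IR it had 18098, 4117, 17433 and 13768 units, against 4751, 6619, 5680 and 2156 in WT_Sham. Replicate 2 lay within the WT_Sham range, and the WT difference of 1.41 did not pass (limma adjusted p = 0.0787). Without that array it was 1.91 (limma adjusted p = 0.00174). Its mean rank among all probes was 16 in TG_IR and 176 in TG_Sham, and 73.5 in WT_IR and 224.5 in WT_Sham.

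ILMN_2986393 was near the lower edge of the rule in sham and gained the most places after I/R over both genotypes. It had 12830, 13146, 9809 and 9212 units in TG_IR, against 4071, 3791, 3887 and 3436 in TG_Sham. In WT_IR it had 11138, 3381, 11374 and 8454 units, against 3915, 3374, 2897 and 4067 in WT_Sham. The TG groups were far apart, whereas WT_IR replicate 2 lay inside the WT_Sham range and the other 3 WT_IR hearts well above it. The probe rose in both genotypes, by a log2 difference of 1.58 in TG (SE 0.29, limma adjusted p = 0.00477) and 1.16 in WT (SE 0.29, limma adjusted p = 0.0333). The WT call, like that of every other member, was lost without WT_IR replicate 1 or 3 or WT_Sham replicate 2 or 3. Its mean rank was 62.5 in TG_IR and 236.2 in TG_Sham, and 119.5 in WT_IR and 259.8 in WT_Sham.

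The largest downward differences in TG were those of ILMN_2933357 and ILMN_2765759. ILMN_2933357 had 3247, 2075, 3391 and 3606 units in TG_IR, against 6055, 5031, 8467 and 6512 in TG_Sham. All TG_IR hearts were below all TG_Sham hearts, and the probe fell by 1.12 on the log2 scale (SE 0.27, limma adjusted p = 0.0122). In WT_IR it had 3817, 6699, 2581 and 5751 units, against 7954, 6337, 9041 and 7253 in WT_Sham. The WT difference of −0.80 did not pass with all arrays (limma adjusted p = 0.0794), and was −1.01 without WT_IR replicate 2 (limma adjusted p = 0.0099). ILMN_2765759 had 1898, 2396, 2174 and 1807 units in TG_IR, against 4497, 4278, 3805 and 3524 in TG_Sham. It fell by 1.00 on the log2 scale in TG (SE 0.21, limma adjusted p = 0.00756), about a 2.01-fold lower level. In WT_IR it had 1538, 3563, 1760 and 2669 units, against 3997, 3477, 2990 and 3744 in WT_Sham. Replicate 2 again lay among the sham hearts, and the WT difference was −0.68 (limma adjusted p = 0.0642) with all arrays and −0.91 without that one (limma adjusted p = 0.00114). ILMN_2765759 also lost the most places, with a mean rank of 470 in TG_IR and 221.8 in TG_Sham, and of 451.2 in WT_IR and 259.5 in WT_Sham.

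In WT, ILMN_3161547 had the largest upward difference among called members whose groups did not overlap. It had 21477, 10220, 20147 and 16421 units in WT_IR, against 4725, 7785, 7650 and 4272 in WT_Sham. Even WT_IR replicate 2 was above every WT_Sham heart, and the log2 difference was 1.50 (SE 0.40, limma adjusted p = 0.0391). In TG_IR it had 19549, 18055, 21407 and 16028 units, against 11805, 20400, 5499 and 4249 in TG_Sham. The TG_IR hearts were uniformly high, while the TG_Sham hearts ranged widely and TG_Sham replicate 2 was as high as the I/R hearts. The TG difference of 1.12 did not pass (limma adjusted p = 0.0741). ILMN_1224768 had 7490, 3948, 5062 and 6204 units in WT_IR, against 3721, 2938, 3833 and 3168 in WT_Sham. It rose by a log2 difference of 0.72 (SE 0.20, limma adjusted p = 0.0473), close to the threshold, and the call was lost with slide as a block (limma adjusted p = 0.0502). Its TG difference was 0.63 (limma adjusted p = 0.0514), against the TG_Sham arrays that took it past the rule, since its WT_Sham mean was 3415.1.

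ILMN_2854828 and ILMN_2699167 had the largest downward differences of that kind in WT, and both also fell in TG. ILMN_2854828 had 2828, 5677, 3475 and 4117 units in WT_IR, against 5967, 5967, 6071 and 6323 in WT_Sham. The WT_Sham hearts were nearly identical and all WT_IR hearts lay below them, by a log2 difference of −0.66 (SE 0.15, limma adjusted p = 0.0271). In TG it had 3454, 3688, 4009 and 3475 units after I/R, against 5197, 5937, 5525 and 5148 after sham, a difference of −0.59 (limma adjusted p = 0.0156). ILMN_2699167 had 2265, 3481, 2693 and 2818 units in WT_IR, against 4256, 3788, 4940 and 4313 in WT_Sham. All WT_IR hearts lay below all WT_Sham hearts, by a difference of −0.65 (SE 0.13, limma adjusted p = 0.0235), and the TG difference was −0.62 (limma adjusted p = 0.00818). The WT calls of ILMN_3161547, ILMN_1224768, ILMN_2854828 and ILMN_2699167 were each lost, with limma adjusted p between 0.0510 and 0.165, when WT_IR replicate 1, 3 or 4 or WT_Sham replicate 2, 3 or 4 was left out. Leaving out WT_Sham replicate 1 also ended the calls of the first 3 of these (limma adjusted p between 0.0505 and 0.0883). Each of these 8 members also averaged 3500 or more in the sham arrays of the genotype other than the one for which it is named here.

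**Figure D4:**
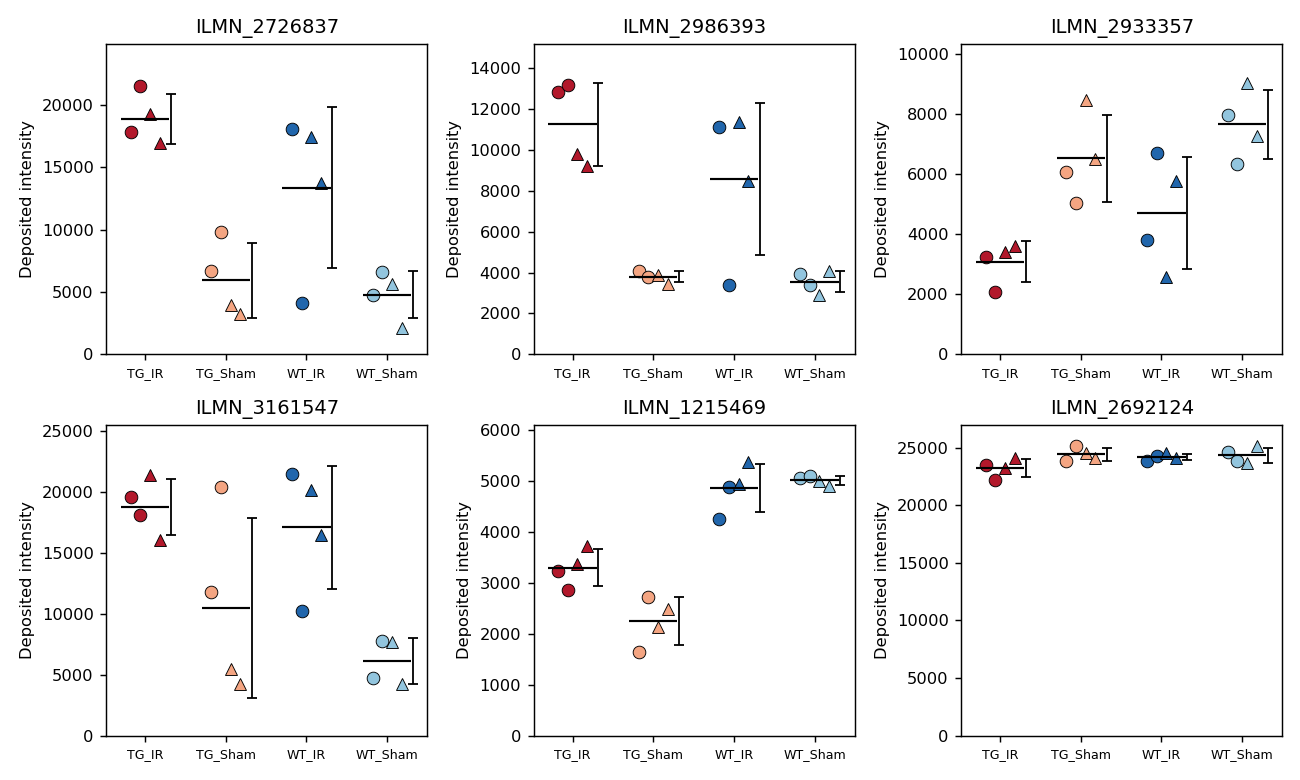
Deposited intensity of 6 members in each heart (linear axes from 0, circles for slide 1 and triangles for slide 2), with group mean and SD (n = 4). ILMN_2726837 and ILMN_2986393 are high in TG_IR and in 3 of the 4 WT_IR hearts, ILMN_3161547 is spread widely in TG_Sham, ILMN_1215469 separates the genotypes after sham, and ILMN_2692124 has nearly the same level in every group.

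Counted without a model, 155 members had all TG_IR arrays on one side of all TG_Sham arrays, 55 above and 100 below, beside 20% of all probes (9.77% above and 10.2% below). In WT, 56 members did so, 13 above and 43 below, beside 8.15% of all probes (3.51% above and 4.65% below). The WT count was 188 without WT_IR replicate 2, 61 above and 127 below, beside 24.6% of all probes (11.6% above and 13% below), so that the order of the genotypes by this count turned with 1 array. Fewer arrays also make it easier for groups not to overlap. The set chosen on WT_Sham gave 155 of 259 in TG, and the set chosen on TG_Sham gave 56 of 261 in WT (188 without replicate 2).

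Most members shifted in the same direction in both genotypes, as did the probes next in brightness. Of the 259, 241 (93.05%) had the same sign of log2 difference in TG and in WT, each set against its own sham hearts, beside 91.6% of the 776 probes with a sham mean of 1000 to 3500 and 67.4% of all probes. By limma calls, 20 were higher in both, 40 lower in both and 0 opposite, which is 43.2% of the TG calls and 81.1% of the WT calls. Over all probes 37.3% of the TG calls and 77.3% of the WT calls were shared, and in the class from 1000 to 3500 these shares were 41.25% in TG and 78.6% in WT, close to those of the members. A further 79 were called in TG alone, 14 in WT alone and 106 in neither. Without WT_IR replicate 2, 55 were higher in both, 108 lower in both, 14 were called in TG alone and 20 in WT alone. Members with the larger absolute difference in TG numbered 165 of those 241 with all arrays (68.5%, beside 59.03% over all probes), and 91 of 243 without that array (37.45%, beside 45.7% over all probes). The greater count of TG calls therefore turned with 1 WT_IR heart.

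The shifts of each single I/R heart were also regressed on the mean shift of the other genotype's I/R hearts, across the 259 members. Slopes of the TG_IR arrays on WT_IR without replicate 2 were 0.938, 1.00, 0.797 and 0.673, with Pearson's r across members of 0.860 to 0.936. Slopes of the WT_IR arrays on TG_IR were 1.18, 0.00694, 1.25 and 0.788. Pearson's r was 0.919 to 0.943 for WT_IR replicates 1, 3 and 4, and 0.0191 for replicate 2. A slope depends on the correlation as well as on the size of the shifts, so equally large shifts give a slope below 1 where r is below 1. By these slopes the other 7 arrays lay between 0.673 and 1.25, and WT_IR replicate 2 had almost no I/R pattern among these probes. On the mean of all WT_IR arrays, the TG_IR slopes were 1.19, 1.28, 1.01 and 0.85. The points of each regression share an array and a sham mean, so these are descriptions.

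Between genotypes few members differed. After sham, limma called 1 member, beside 0.0156% of all probes, and 12 of the 259 had an unadjusted p under 0.05, beside 5.97% of all probes. That member was ILMN_1215469, with 1649, 2731, 2126 and 2490 units in TG_Sham, against 5056, 5094, 4996 and 4900 in WT_Sham. Every TG_Sham heart was below every WT_Sham heart, by a log2 difference of −1.23 (SE 0.13, limma adjusted p = 0.00142). Its TG_Sham mean of 2249 was below the threshold of the rule, so that it was a member only through the WT_Sham hearts of this comparison, and its call is a description. The set chosen on TG_Sham does not hold it, and limma called another probe there. That probe, ILMN_2729762, was named after its values were seen and is no member, with a sham mean of 3394.5. It had 7322, 4361, 6845 and 7607 units in TG_Sham, against 214, 279, 304 and 224 in WT_Sham, and likewise was in the set only through the TG_Sham hearts. It had 2367, 3364.5, 2827 and 2495 units in TG_IR, against 430, 1659, 290 and 323 in WT_IR, where replicate 2 was the highest WT heart. After I/R the member ILMN_1215469 had 3224, 2853, 3371 and 3727 units in TG_IR, against 4245, 4875, 4935 and 5376 in WT_IR. The TG_IR hearts again lay below the WT_IR hearts, but the difference of −0.58 did not pass (limma adjusted p = 0.955, unadjusted p = 0.000472). Groups did not overlap after sham for 14 members, beside 3.83% of all probes.

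After I/R, limma called 0 members between TG and WT, beside 0% of all probes. An unadjusted p under 0.05 was found for 23 of the 259 members, a larger share than the 4.92% of all probes. It was also found for 58 of the 776 probes with a sham mean of 1000 to 3500 and 254 of the 3331 from 300 to 1000. Arrays did not overlap for 4 members, beside 2.56% of all probes. Without WT_IR replicate 2, 0 members were called, beside 0.00389% of all probes, 11 had an unadjusted p under 0.05, beside 4.14% of all probes, and 7 did not overlap, beside 5.05% of all probes. ILMN_2629835 had the smallest p after ILMN_1215469 with all arrays, with 4566, 4485, 4434 and 4623 units in TG_IR, against 3608, 3665, 4242 and 4026 in WT_IR. The TG_IR hearts were all higher, by a log2 difference of 0.23 (limma adjusted p = 0.955). Its TG_Sham hearts were likewise all above its WT_Sham hearts, by a log2 difference of 0.17 (limma adjusted p = 0.735), so this order was not particular to I/R. The interaction, which asks whether the I/R difference itself depends on genotype, called 0 members by limma, beside 0% of all probes, with 3 at an unadjusted p under 0.05, beside 4.15% of all probes. The counts without WT_IR replicate 2 were 0 members, beside 0% of all probes, and 7, beside 4.12% of all probes. With all arrays ILMN_2691780 had the smallest p of these, with a TG difference of 0.26, a WT difference of −0.09 and an interaction of 0.35 (SE 0.09, limma adjusted p = 0.999).

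These comparisons give an interval for the difference of each member taken singly, and the intervals do not cover all members at once. All arrays were used, so those after I/R and for the interaction include WT_IR replicate 2. The 95% interval of a genotype difference had a median half-width of 0.22 log2 over the members. It lay within ±0.5 log2 for 226 members after sham and 211 after I/R, and within ±1 log2 for 254 after sham and 253 after I/R. For the interaction the median half-width was 0.31 log2, and the interval lay within ±0.5 log2 for 175 members and within ±1 log2 for 248.

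The members were measured with little spread between hearts in 3 of the 4 groups. The median coefficient of variation (SD over mean of 4 hearts) was 8.33% in TG_IR and 6.91% in TG_Sham, and 15.3% in WT_IR and 5.96% in WT_Sham. Without WT_IR replicate 2 the WT_IR median was 9.30%. It was under 10% for 158 members in TG_IR and 199 in TG_Sham, and for 64 in WT_IR (141 without replicate 2) and 210 in WT_Sham. It exceeded 20% for 10 members in TG_IR and 13 in TG_Sham, and for 74 in WT_IR (12 without replicate 2) and 9 in WT_Sham. Probes with a sham mean of 1000 to 3500 had medians of 8.89% in TG_IR, 7.47% in TG_Sham, 15.6% in WT_IR (10.5% without replicate 2) and 6.84% in WT_Sham. Probes with a sham mean of 300 to 1000 had lower medians than the members in every group. These were 6.92% in TG_IR, 5.94% in TG_Sham, 10.6% in WT_IR (7.48% without replicate 2) and 5.74% in WT_Sham. Probes under 300 had medians of 1.59% to 1.70% in the 4 groups, at values near the floor, since the lowest intensity was 161.5.

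**Figure D5:**
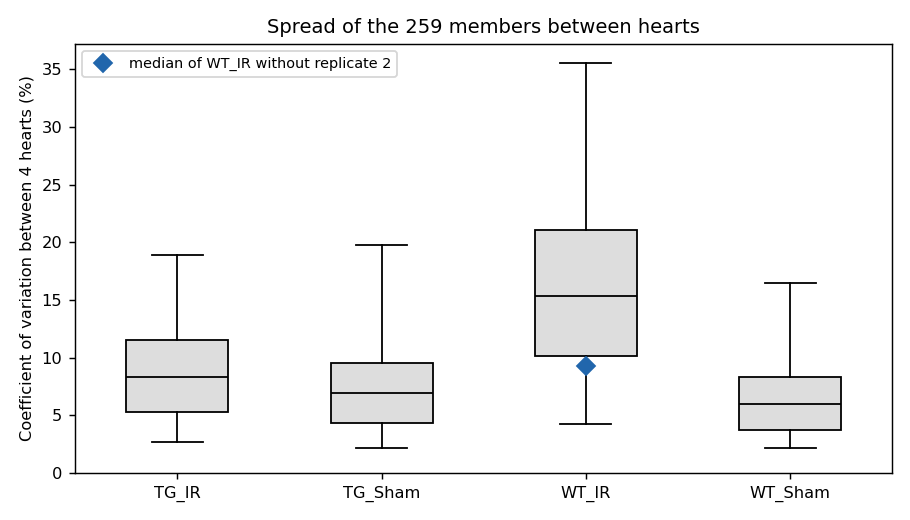
Coefficient of variation between the 4 hearts of a group (percent, axis from 0) over the 259 members, as boxes from the lower to the upper quartile with the median as a line and whiskers to the outermost members inside the 5th to 95th percentiles. The medians are 8.33% in TG_IR, 6.91% in TG_Sham, 15.3% in WT_IR and 5.96% in WT_Sham, and the diamond marks 9.30% for WT_IR without replicate 2.

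Among the members, spread was smallest at the top and grew toward the middle ranks. The pooled within-group SD had a median of 0.07 log2 over the 10 brightest members, 0.12 over ranks 11 to 50 and 0.18 over ranks 101 to 150. ILMN_2692124 and ILMN_2876071 were the steadiest. ILMN_2876071 had a pooled SD of 0.05 log2, and averaged 18104 ± 796 units in TG_IR and 18250 ± 232 in TG_Sham, and 18371 ± 785 in WT_IR and 17677 ± 490 in WT_Sham (SD, n = 4 each). ILMN_2726837 and ILMN_2649810 varied most, with pooled SDs of 0.72 and 0.68 log2. ILMN_2649810 had 3539, 1023, 3516 and 3516 units in TG_IR, against 1904, 3616, 6243 and 7520 in TG_Sham, and 4257, 7482, 3104 and 4940 in WT_IR, against 7194, 6644, 7451 and 6826 in WT_Sham. It was steady in WT_Sham hearts only, and neither I/R difference passed (limma adjusted p = 0.340 in TG and 0.525 in WT). Within TG_Sham its 2 hearts of the first slide were lower than the 2 of the second slide, and in the same hearts ILMN_2726837 and ILMN_3161547 were higher on the first slide.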

How the data were processed

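The deposited intensity values are linear, 1 table of 25697 probes by 16 arrays. The sources used here do not say how the authors corrected and normalized them, or with which software. Per the labels' protocols, total RNA was extracted with TriReagent and the TotalPrep kit of Illumina gave biotinylated cRNA. On all arrays the deposited intensities had medians of 178.8 to 178.9, and at each of the 259 brightest places they spread by at most 7.53% (median 3.24%), so they had been equalised between arrays before deposition. Shares and ranks use them as deposited.

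For tests, intensities were background-corrected (normexp, offset 50), not normalized again, and log2 transformed. With limma 3.58.1 (R 4.3.3), 4 group means were estimated over all 16 arrays, with Benjamini-Hochberg adjustment over 25697 probes and a threshold of 0.05. All adjusted p-values across probes are limma's. The fit was tested on simulated data. Shares were compared by exact permutation over 70 assignments. The design text gives 1 mouse per array, and 4 arrays per group limit the precision. The number of other sample columns in the table was 0.

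Probes and lists were chosen with earlier results of these data known. The naming rule took probes by sham mean, by size of difference among called probes whose groups did not overlap, by smallest p, by spread, by rank change, by nearness to the threshold and by I/R mean. With no table of probe genes it was kept to at most 2 probes per item and direction. The planned gene lists, the marker check and 1 value per gene were not computed, and no sequence is shown. Alternatives varied background correction, normalization, arrays and samples fitted, slide, variance model, array weights, the dim-probe filter, the choice of members and each array left out.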

Additional observations from a re-analysis of the deposited data

Results flagged for a closer look

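Dixon's criterion for a heart far from the other 3 of its group was met 3 times in 76 searches over named probes, where chance gives about 1 in 20, or 3.8. Some of these probes, ILMN_2649810 among them, were named by their spread, and others because their groups did not overlap. The chance rate therefore need not hold for them. ILMN_2649810 was at 9.83 (log2 intensity after background correction) in TG_IR replicate 2, against 11.73 to 11.74 in the other TG_IR hearts. ILMN_2469689, just inside the threshold of the rule, was at 11.51 in WT_IR replicate 1, against 11.59 to 11.60 in the other WT_IR hearts. The same probe was at 11.59 in WT_Sham replicate 3, against 11.70 to 11.72 in the other WT_Sham hearts.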

How the results depend on the processing

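No paired analysis was possible because no number in the labels joins mice of different groups. The count of 74 members called after I/R in WT was 38 without background correction, 0 with the WT arrays fitted alone, 0 on slide 1 alone, 115 on slide 2 alone, 166 with array weights, 112 with dim probes left out, 46 with members chosen at 5000 or more, and 189 with slide as a block once WT_IR replicate 2 was left out. The set of 261 gave 40, 0, 0, 116, 166, 114, 47 and 188 under the same settings, against 75. In TG the 139 members became 0 on slide 1 alone, and the set of 259 gave 0 there and 92 at 5000 or more, against 142. Between genotypes after sham, 0 members were called on slide 1 alone, where the log2 difference of ILMN_1215469 was −1.31, 0 at 5000 or more, a set that leaves this probe out, and 2 at 3000 or more. Leaving out single arrays gave 81 to 177 members in TG, 0 to 183 in WT, 83 to 180 and 0 to 182 in the sets chosen elsewhere, 1 throughout after sham, and 0 throughout after I/R and for the interaction. It moved the median within-group SD between 0.12 and 0.17 log2.

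For the members' share, TG_IR minus WT_IR was 0.10 points on slide 2 alone, and leaving out single arrays gave −0.307 to 0.0824, with 0.0824 without WT_IR replicate 2. TG_Sham minus WT_Sham was 0.0132 points on slide 2 alone and 0.0108 at 3000 or more, and −0.06 to −0.02 with single arrays left out. The share chosen elsewhere differed after I/R in TG by −0.91 on slide 1 and −0.68 on slide 2, where exact p cannot go below 0.333, and by −0.88 to −0.72 with single arrays left out. In WT it was −0.78 at 3000 or more (exact p = 0.0286) and −0.86 to −0.46 with single arrays left out. The 9 calls of named members kept their sign in all 27 alternatives each, 189 of these past the threshold and 54 not, of which 18 were for ILMN_1224768. The alternative of 1 value per gene was not run. Single slides and single genotypes hold fewer arrays, and counts there moved both ways. For I/R against sham, the TG arrays fitted alone gave 166 members against 139. The WT arrays fitted alone gave 0 against 74, and slide 2 alone gave 115 in WT. Why the counts moved was not tested.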
